A study of Mus musculus with 6 samples.

Results

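Integrins, laminins and nidogens were followed across the 6 sorted stromal populations of the mouse omentum. The members were every gene whose symbol names an integrin alpha or beta subunit, a laminin alpha, beta or gamma chain, or a nidogen. Membership was set by symbol and not by level, although the choice was made with earlier results of these data known. There were 39 members among 23352 genes, namely 18 integrin alpha subunits, 8 integrin beta subunits, 11 laminin chains and 2 nidogens. Of these, 28 reached 1 FPKM (a read count divided by transcript length in kilobases and by the mapped reads of the library) in at least 1 library, and 17 did so in every library.

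Cells came from WT C57BL/6 mice and all gates were CD45-. P1 was CD140a+CD105+ with high aldehyde dehydrogenase (ALDH) activity, whereas P2 (intermediate ALDH activity) and P3 (low) carried the same surface markers. P4 (intermediate ALDH activity) and P5 (low) were CD140a+CD105-, and P6 was CD140a low and ALDH positive. Each population had 1 library, so no difference between populations has a replicate check and no p-value was computed, and the age, sex and number of mice behind a library are not given in the sources used here.

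*Eng*, which encodes CD105, had 42.6 to 52.4 FPKM in P1, P2 and P3 and at most 0.728 FPKM in P4, P5 and P6. *Pdgfra*, which encodes CD140a, had 117 to 154 FPKM in P1 to P5 and 5.36 in P6, and *Ptprc*, which encodes CD45, had at most 0.755 FPKM. *Aldh1a2*, the retinaldehyde dehydrogenase that the study centers on, had 469, 78.8 and 134 FPKM in P1, P2 and P3 and 285, 145 and 209 FPKM in P4, P5 and P6. Thus *Eng* and *Pdgfra* followed the gates, whereas *Aldh1a2* was lower in P2 than in P3. Estimated depth was 37.2 M reads in P6 and 53.3 to 62.0 M reads in the other libraries. Ratios are given with 95% intervals from estimated reads, which cover counting error only and say nothing of the spread between mice or sorts. In sorted bulk populations, fewer cells of a type and less RNA per cell cannot be told apart.

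Several marker lists differed between the libraries. All 8 mesothelial markers reached 1 FPKM, and their summed level was 72.7, 95.2 and 147 FPKM in P1, P2 and P3 and 919, 743 and 2900 FPKM in P4, P5 and P6. All 6 pancreatic acinar markers did so too, with sums of 3.16, 174 and 17.9 FPKM in P1, P2 and P3, against 927, 115 and 1390 FPKM in P4, P5 and P6. The 6 fibroblast markers had a median of 804, 838 and 607 FPKM in P1, P2 and P3 and 396, 190 and 7.77 FPKM in P4, P5 and P6. Their sums differed less, at 9340, 9590 and 7700 FPKM in P1, P2 and P3 and 7200, 6010 and 6110 FPKM in P4, P5 and P6. Within this list *Dcn* had 4350 FPKM in P6 and 4860 to 5870 elsewhere, and *Col1a1* was highest in P6 at 1740 FPKM. P6 and, at a lower level, P4 and P5 therefore stood apart from P1 to P3 in mesothelial markers. Sums over the 9 leukocyte markers lay between 27.6 and 64.9 FPKM, with *Cd3e* at or near 0. Of the 8 endothelial markers only *Kdr* and *Esam* reached 1 FPKM, and the list summed to 1.75 FPKM in P1 and 112 in P6. Of the 6 adipocyte markers, *Cfd* had 114 FPKM in P6 and at most 0.337 elsewhere, while *Lep* was at or near 0. Of the 6 mural markers 5 reached 1 FPKM (sums of 5.69 FPKM in P1 to 104 in P5), and of the 5 Schwann and neural markers 2 did so (1.14 FPKM in P6 to 11.6 in P1), with *Sox10* listed at 0 throughout.

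Integrins are cell surface receptors made of an alpha and a beta subunit, which attach cells to matrix or to other cells and connect to the actin cytoskeleton inside. Laminins are trimers of an alpha, a beta and a gamma chain that form the polymer of basement membranes. Nidogens bind the laminin gamma chain and collagen IV and thereby bridge both networks. In lymphoid tissues, fibroblastic reticular cells wrap collagen bundles in such a sheet, and mesothelial cells rest on a basement membrane.

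Upstream sequences of 5 members are shown because these genes sit at opposite ends of the pattern described next. *Nid1*, *Itga5* and *Itgb5* were highest in P1 and lowest in P6, whereas *Itga3* and *Itga10* were highest in P6. Each sequence holds the 120 bases that end just before the most upstream start annotated in GENCODE or RefSeq (for *Nid1* the GENCODE start, which lies upstream of the RefSeq start), read 5′ to 3′ on the strand of the gene, from RefSeq (GRCm38.p6). The *Nid1* sequence is chr13:13437431-13437550 on the plus strand, *Itga5* is chr15:103366792-103366911 on the minus strand and *Itgb5* is chr16:33829545-33829664 on the plus strand. The *Itga3* sequence is chr11:95076845-95076964 on the minus strand, and *Itga10* is chr3:96645464-96645583 on the plus strand. Capitals mark the GC box letters GGGCGG and the letters GGAATG of a TEAD site, on either strand.
Nid1: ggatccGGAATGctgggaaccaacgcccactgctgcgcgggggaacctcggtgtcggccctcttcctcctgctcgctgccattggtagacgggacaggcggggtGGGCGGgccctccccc
Itga5: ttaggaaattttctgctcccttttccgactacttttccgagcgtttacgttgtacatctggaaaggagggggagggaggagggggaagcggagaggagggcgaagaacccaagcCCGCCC
Itgb5: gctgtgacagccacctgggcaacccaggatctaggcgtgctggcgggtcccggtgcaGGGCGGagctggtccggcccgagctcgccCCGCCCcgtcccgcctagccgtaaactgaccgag
Itga3: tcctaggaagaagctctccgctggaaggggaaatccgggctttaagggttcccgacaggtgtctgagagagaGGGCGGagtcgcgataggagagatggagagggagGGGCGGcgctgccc
Itga10: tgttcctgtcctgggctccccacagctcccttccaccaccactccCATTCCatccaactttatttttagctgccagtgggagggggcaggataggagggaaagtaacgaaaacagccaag

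The table of promoters held 27 windows for 24 of the 39 members. In the 250 bases before the start, GGGCGG occurred on either strand in 10 of 27 windows (37.0%), against 32.7% of all 32851 windows of that length. GGAATG occurred in 4 windows (14.8%), against 12.6% of all windows, and the AP-1 letters TGACTCA in 1 window (3.70%), against 4.46%. TATAAA was in 0 of 27 windows, against 12.4% of all, and the retinoid receptor half-site AGGTCA was also in 0, against 14.0%. None of these motifs contains another. GGGCGG occurred in the shown sequences of *Nid1*, *Itga5*, *Itgb5* and *Itga3* and not in that of *Itga10*. These are matches of letters only.

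Across the 6 libraries the members spread widely. The ratio of the highest to the lowest library had a median of 6.06 over the 28 members of at least 1 FPKM, from 1.39 for *Itgb1* to 205 for *Lamc3*. Over the 12631 genes of the same minimum with no library at 0, the median was 1.63. Only *Itgb1* and *Lamb2* stayed below a ratio of 2 (7.14% of members, against 63.3% of genes). Of the 28 members, P1 held the highest value for 9 (14.2% of all genes), P2 for 1 (8.80%) and P3 for 2 (8.75%). P4 held it for 4 members (6.33%), P5 for 5 (24.2%) and P6 for 7 (37.7%). The shares of all genes are those highest in the same library among the 12904 genes of at least 1 FPKM.

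**Figure D1:**
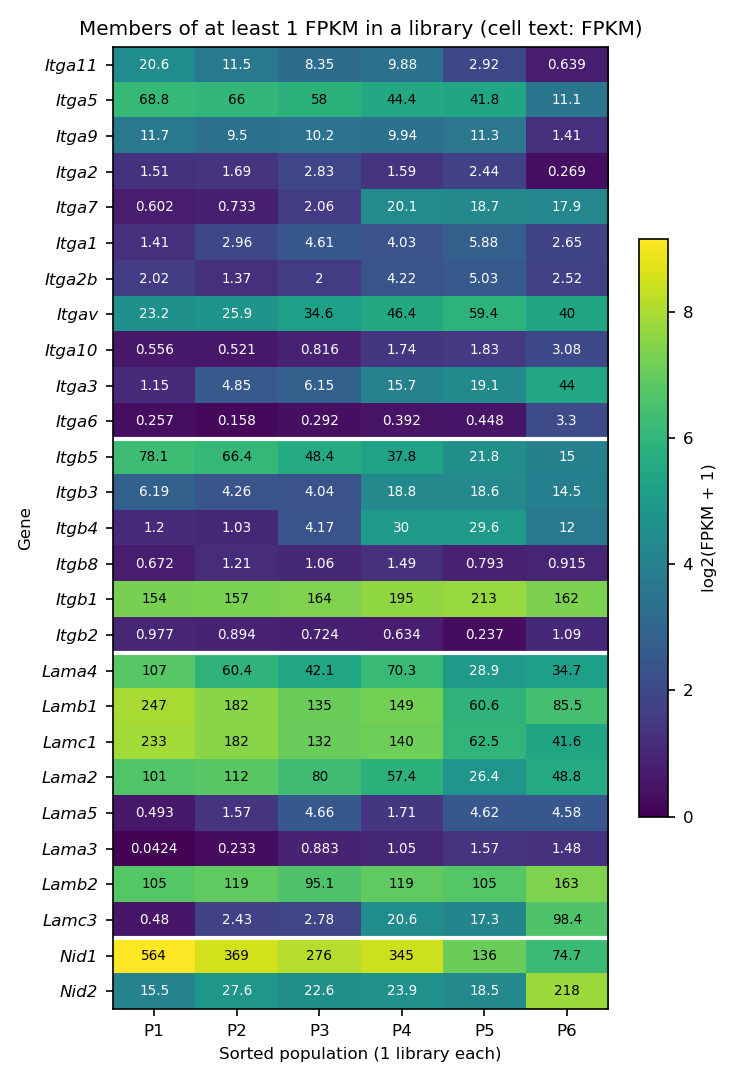
FPKM of 27 members of at least 1 FPKM in a library, 1 row per gene and 1 column per population (1 library each), with color giving log2(FPKM + 1) and the printed number giving FPKM. Within each family, genes are ordered by the library in which they were highest. *Nid1* has 564 FPKM in P1 and 74.7 in P6, and *Lamc3* has 0.480 and 98.4.

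Among laminin alpha chains, *Lama2* and *Lama4*, the chains of laminins found around muscle and vessels, were the most abundant per length in every library. *Lama2* had 101, 112 and 80 FPKM in P1, P2 and P3 and 57.4, 26.4 and 48.8 FPKM in P4, P5 and P6. *Lama4* had 107, 60.4 and 42.1 FPKM in P1, P2 and P3, against 70.3, 28.9 and 34.7 FPKM in P4, P5 and P6. Both were lowest in P5, and together they made up nearly all laminin alpha chain FPKM in P1, at 51.4% for *Lama4* and 48.4% for *Lama2*.

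*Lama5*, an alpha chain of epithelial and vascular basement membranes, had 0.493, 1.57 and 4.66 FPKM in P1, P2 and P3 and 1.71, 4.62 and 4.58 FPKM in P4, P5 and P6. It was higher at low than at intermediate ALDH activity in both CD105 gates. *Lama3*, which assembles with *Lamb3* in epidermal basement membrane, had 0.0424, 0.233 and 0.883 FPKM in P1, P2 and P3 and 1.05, 1.57 and 1.48 FPKM in P4, P5 and P6. Its partner *Lamb3* stayed at or below 0.278 FPKM in all libraries. *Lama1*, the alpha chain of early embryonic laminin, had at most 0.302 FPKM.

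The beta chains *Lamb1* and *Lamb2* are alternatives within a trimer, and they exchanged rank between the libraries. *Lamb1* had 247, 182 and 135 FPKM in P1, P2 and P3, against 149, 60.6 and 85.5 FPKM in P4, P5 and P6. *Lamb2* had 105, 119 and 95.1 FPKM in P1, P2 and P3 and 119, 105 and 163 FPKM in P4, P5 and P6. The FPKM ratio of *Lamb1* to *Lamb2* was 2.36, 1.52 and 1.42 in P1, P2 and P3 and 1.25, 0.576 and 0.524 in P4, P5 and P6. *Lamb1* was thus the more abundant per length in P1 to P4 and *Lamb2* in P5 and P6.

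The gamma chains differed more. *Lamc1*, the gamma chain of most laminins, had 233, 182 and 132 FPKM in P1, P2 and P3, against 140, 62.5 and 41.6 FPKM in P4, P5 and P6. *Lamc3*, a gamma chain of restricted expression, had 0.480, 2.43 and 2.78 FPKM in P1, P2 and P3 and 20.6, 17.3 and 98.4 FPKM in P4, P5 and P6. *Lamc3* made up 0.202% of laminin gamma chain FPKM in P1 and 69.9% in P6. Its FPKM ratio to *Lamc1* was 0.00206, 0.0133 and 0.0210 in P1, P2 and P3 and 0.146, 0.276 and 2.36 in P4, P5 and P6, so that the order of the chains was reversed only in P6.

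The nidogens showed a similar exchange. *Nid1*, on chromosome 13, had the highest FPKM of all members in P1 to P4, with 564, 369 and 276 FPKM in P1, P2 and P3 and 345 and 136 FPKM in P4 and P5, and it had 74.7 FPKM in P6. *Nid2*, on chromosome 14, had 15.5, 27.6 and 22.6 FPKM in P1, P2 and P3 and 23.9, 18.5 and 218 FPKM in P4, P5 and P6. *Nid2* was 2.68% of the summed nidogen FPKM in P1 and 74.5% in P6. *Nid2* was higher in P6 than in any other library, as were 37.7% of all genes of at least 1 FPKM. *Nid1* was lower in P6 than in any other library, and the share of all genes lowest there was not computed.

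**Figure D2:**
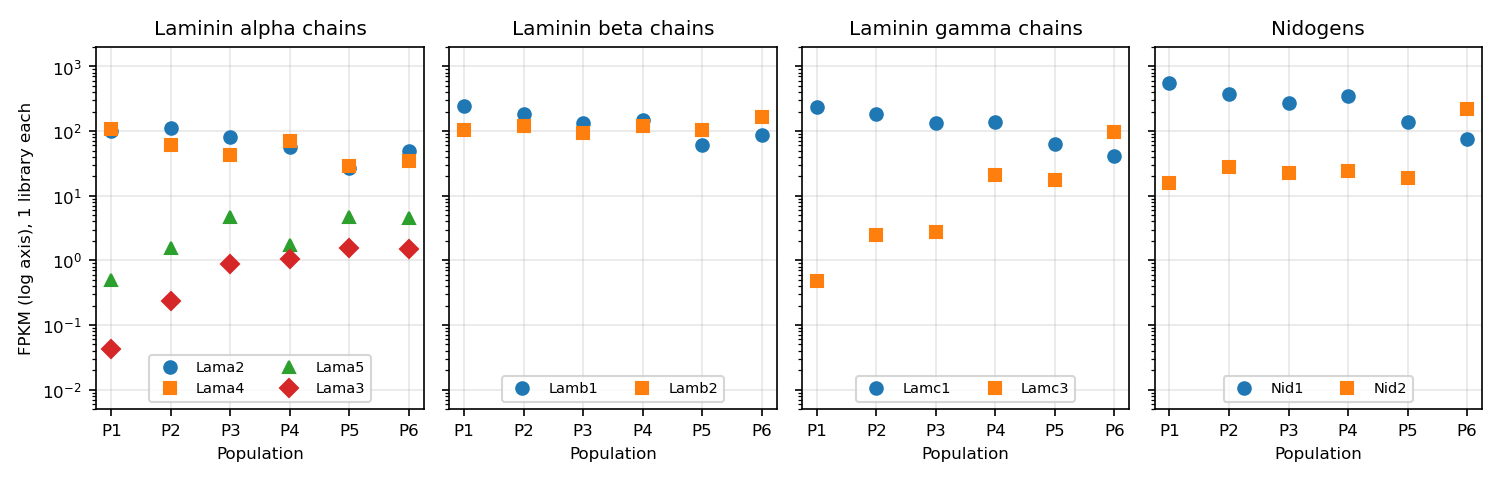
FPKM of laminin chains and nidogens (log axis) in each population, 1 point per gene and library, for 10 members of at least 1 FPKM in a library. *Lamc3* lies below *Lamc1* in P1 to P5 and above it in P6 (98.4 against 41.6 FPKM), and *Nid2* lies above *Nid1* only in P6 (218 against 74.7 FPKM).

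*Itgb1*, the beta subunit shared by most matrix-binding integrins, had 154, 157 and 164 FPKM in P1, P2 and P3 and 195, 213 and 162 FPKM in P4, P5 and P6, and it was the most even member. It made up 63.8% of the summed beta subunit FPKM in P1 and 78.6% in P6. *Itgb5*, which pairs with *Itgav* in a vitronectin receptor, had 78.1, 66.4 and 48.4 FPKM in P1, P2 and P3, against 37.8, 21.8 and 15.0 FPKM in P4, P5 and P6. Its order over the libraries was a descending series from P1 to P6.

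*Itgb3*, the other main partner of *Itgav* and the partner of *Itga2b*, had 6.19, 4.26 and 4.04 FPKM in P1, P2 and P3 and 18.8, 18.6 and 14.5 FPKM in P4, P5 and P6. *Itgb4*, the long beta subunit of epithelial hemidesmosomes, had 1.20, 1.03 and 4.17 FPKM in P1, P2 and P3 and 30.0, 29.6 and 12 FPKM in P4, P5 and P6. For both genes the values in P4, P5 and P6 lay above those in P1, P2 and P3. The same held for *Itga10*, *Itgav*, *Lamc3* and other members, while *Itga5* and *Itgb5* were separated the other way. The share of all genes with such a separation was not computed. *Itgb8*, which activates latent TGF-beta together with *Itgav*, had 0.672, 1.21 and 1.06 FPKM in P1, P2 and P3, against 1.49, 0.793 and 0.915 FPKM in P4, P5 and P6. *Itgb2*, the beta subunit of leukocyte integrins, had 0.977, 0.894 and 0.724 FPKM in P1, P2 and P3 and 0.634, 0.237 and 1.09 FPKM in P4, P5 and P6.

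*Itga6* is the known alpha partner of *Itgb4*, and their levels did not run in parallel. *Itga6* had 0.257, 0.158 and 0.292 FPKM in P1, P2 and P3 and 0.392, 0.448 and 3.30 FPKM in P4, P5 and P6. The FPKM ratio of *Itgb4* to *Itga6* was 4.68, 6.54 and 14.3 in P1, P2 and P3, against 76.5, 66.0 and 3.63 in P4, P5 and P6. P4 and P5 were therefore highest for *Itgb4* at levels of *Itga6* below 1 FPKM.

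The other laminin-binding alpha subunits are *Itga3* and *Itga7*. *Itga3* had 1.15, 4.85 and 6.15 FPKM in P1, P2 and P3 and 15.7, 19.1 and 44.0 FPKM in P4, P5 and P6, an ascending series. *Itga7*, best known from skeletal muscle, had 0.602, 0.733 and 2.06 FPKM in P1, P2 and P3 and 20.1, 18.7 and 17.9 FPKM in P4, P5 and P6. Both were higher in each of P4, P5 and P6 than in any of P1, P2 and P3, as were *Itgb3* and *Itgb4*. This order was not set against that of all genes.

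Among collagen-binding alpha subunits, *Itga11*, a fibrillar collagen receptor of fibroblasts, had 20.6, 11.5 and 8.35 FPKM in P1, P2 and P3, against 9.88, 2.92 and 0.639 FPKM in P4, P5 and P6. *Itga1* had 1.41, 2.96 and 4.61 FPKM in P1, P2 and P3 and 4.03, 5.88 and 2.65 FPKM in P4, P5 and P6, lowest where *Itga11* was highest. *Itga2* had 1.51, 1.69 and 2.83 FPKM in P1, P2 and P3 and 1.59, 2.44 and 0.269 FPKM in P4, P5 and P6. *Itga10*, known from cartilage, had 0.556, 0.521 and 0.816 FPKM in P1, P2 and P3, against 1.74, 1.83 and 3.08 FPKM in P4, P5 and P6. The 4 collagen-binding subunits thus had their highest FPKM in 4 different libraries. *Itga2* and *Itga1* lie 26.0 kb apart on chromosome 13 (GRCm38.p6).

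Among subunits that bind the RGD motif of fibronectin and vitronectin, *Itga5*, the fibronectin receptor subunit, had 68.8, 66.0 and 58.0 FPKM in P1, P2 and P3 and 44.4, 41.8 and 11.1 FPKM in P4, P5 and P6. *Itgav* had 23.2, 25.9 and 34.6 FPKM in P1, P2 and P3 and 46.4, 59.4 and 40.0 FPKM in P4, P5 and P6. *Itga5* exceeded *Itgav* 2.97 times in P1, whereas this FPKM ratio was 0.957 in P4, 0.704 in P5 and 0.277 in P6. *Itga2b*, the platelet fibrinogen receptor subunit, had 2.02, 1.37 and 2.0 FPKM in P1, P2 and P3, against 4.22, 5.03 and 2.52 FPKM in P4, P5 and P6. Of the platelet and megakaryocyte markers, *Pf4* had 0.969, 2.26 and 7.68 FPKM in P1, P2 and P3, against 2.69, 9.64 and 2.31 FPKM in P4, P5 and P6, and *Gp1bb* had 0.198 to 1.80 FPKM. *Ppbp* and *Gp9* were at or near 0 in every library, and the 6 markers summed to 2.84 to 10.2 FPKM. *Itga9*, a receptor for tenascin-C, VCAM-1 and other ligands, had 11.7, 9.50 and 10.2 FPKM in P1, P2 and P3 and 9.94, 11.3 and 1.41 FPKM in P4, P5 and P6.

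The 11 members that stayed below 1 FPKM were *Itga4*, *Itga8*, *Itgad*, *Itgae*, *Itgal*, *Itgam*, *Itgax*, *Itgb6*, *Itgb7*, *Lama1* and *Lamb3*. Their highest value was 0.693 FPKM, for *Itgal* in P2, and 5 of them were listed at 0 in a library. Most are subunits of leukocyte integrins, in gates that were CD45-. At these levels differences between libraries were not compared.

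**Figure D3:**
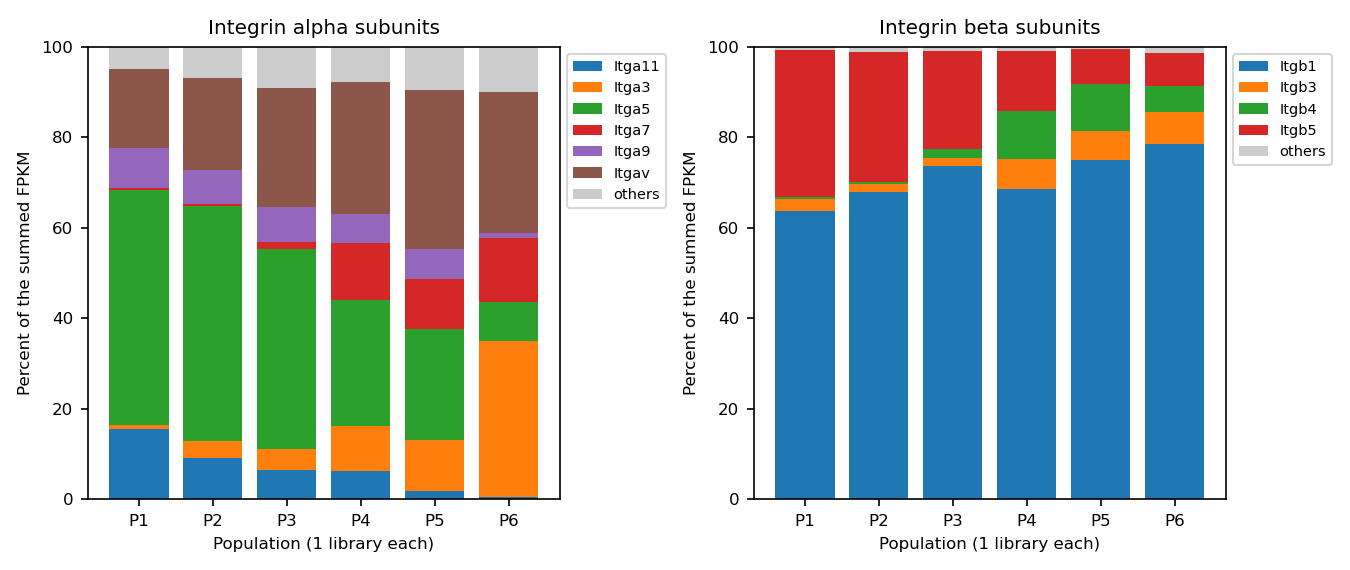
Share of each integrin alpha subunit (left) and beta subunit (right) in the summed FPKM of its family, in percent, 1 bar per population and library; subunits that never reach 5% are pooled as others. *Itga5* is 51.9% of alpha subunit FPKM in P1 and *Itga3* is the first in P6 at 34.4%, while *Itgb5* goes from 32.4% of beta subunit FPKM in P1 to 7.27% in P6.

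The gates imply comparisons by ALDH activity, by CD105 and of P6 with the rest. A member was called when its FPKM was at least 2 times as high in one library and at least 1 FPKM there, and each count is set beside the share of all genes that met the same rule. Because all contrasts that share a library also share its error, their counts are not independent of each other.

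Between high and intermediate ALDH activity in CD105+ cells, 0 of 23 members were called higher in P1 than in P2 (1.05% of all genes) and 4 higher in P2 (4.50% of all genes). The latter were *Lamc3*, with a P2 over P1 ratio of 5.07 (interval 4.25 to 6.09), *Itga3* at 4.21 (3.70 to 4.79), *Lama5* at 3.19 (2.80 to 3.64) and *Itga1* at 2.1 (1.94 to 2.28). All 4 were below 5 FPKM in P2. In the other direction, *Itga11*, *Lama4* and *Nid1* had P1 over P2 ratios of 1.78 (1.71 to 1.86), 1.77 (1.74 to 1.80) and 1.53 (1.52 to 1.54). The acinar marker sum was also higher in P2 than in P1, at 174 against 3.16 FPKM, and so were the mural markers *Acta2* and *Myh11* and the platelet marker *Pf4*. Their part in these ratios was not tested.

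Between intermediate and low ALDH activity in CD105+ cells, 0 of 24 members were called higher in P2 than in P3 (1.16% of all genes). In P3, 3 were called higher (2.75% of all genes), namely *Itgb4* at 4.05 times (3.61 to 4.54), *Lama5* at 2.96 times (2.76 to 3.18) and *Itga7* at 2.82 times (2.37 to 3.38). The mesothelial markers *Upk3b* and *Lrrn4* were also at least 2 times higher in P3 than in P2, at 22.7 against 6.78 and 7.65 against 2.40 FPKM, among 5 mesothelial markers of at least 1 FPKM in either library. So were the mural markers *Myh11* (35.1 against 6.31 FPKM) and *Acta2*, and *Esam*, *Cd14* and *Pf4*. All 6 acinar markers were higher in P2, with a sum of 174 against 17.9 FPKM, as were *Cd79a* and *Laptm5*. The part of these lists in the ratios was not tested. Laminins and nidogens had a median log2 ratio of P2 over P3 of 0.43, with 8 of 10 above 0, against −0.03 over all genes.

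Along P1, P2 and P3, 10 of 28 members had descending FPKM (19.0% of all genes did), and 9 had ascending FPKM (36.6% of all genes). Among the descending members were *Itga5*, *Itga11*, *Itgb2*, *Itgb3*, *Itgb5*, *Lama4*, *Lamb1*, *Lamc1* and *Nid1*. The ascending members were *Itga1*, *Itga2*, *Itga3*, *Itga7*, *Itgav*, *Itgb1*, *Lama3*, *Lama5* and *Lamc3*. For *Itgb1*, the step from P1 to P2 changed direction with median-of-ratios scaling. Of the trimer chains *Lama4*, *Lamb1* and *Lamc1*, which assemble with each other, all 3 and the linker *Nid1* were thus in the descending set. *Lama2*, *Lamb2* and *Nid2* were not in it, as each was higher in P2 than in P1 and P3.

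In CD105- cells, 7 of 26 members were called higher at intermediate than at low ALDH activity (P4 over P5, 4.17% of all genes), most of them laminin chains or a nidogen. *Nid1* was 2.53 times as high in P4 (2.50 to 2.55), *Lamb1* 2.46 times (2.42 to 2.50), *Lama4* 2.43 times (2.37 to 2.49), *Lamc1* 2.25 times (2.21 to 2.28) and *Lama2* 2.18 times (2.13 to 2.22). The only integrin among them was *Itga11*, at 3.39 times (3.14 to 3.66). Only *Lama5* was called higher in P5, at 2.70 times (2.52 to 2.89), where 1.57% of all genes were. Over the 11 laminins and nidogens the median log2 ratio was 1.12, with 9 above 0, against −0.04 over all genes, while the 15 integrins had a median of −0.07. Of the 6 fibroblast markers, *Dpt*, *Col14a1* and *Lum* were also called lower in P5, at 264 against 650, 40.1 against 141 and 56.4 against 143 FPKM. The others differed less, with *Pdgfra* at 117 against 119, *Dcn* at 4860 against 5250 and *Col1a1* at 670 against 898 FPKM. The acinar sum was 927 FPKM in P4 and 115 in P5, and *Msln*, *Krt18*, *Kdr* and *S100b* were called higher in P4 as well, whereas *Pf4* was higher in P5. The part of these lists in the ratios was not tested.

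The P2 over P3 and the P4 over P5 ratios come from separate libraries. Over 24 members, 21 had the same sign in both (87.5%, against 73.7% of all genes). The Pearson correlation was 0.72 across members, against 0.47 over all genes, given as a description since genes are not independent replicates. None of the 24 was at least 2 times higher at intermediate ALDH activity in both CD105 gates (0.517% of all genes). *Lama5* alone was at least 2 times higher at low ALDH activity in both (0.560% of all genes).

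At intermediate ALDH activity, 0 of 26 members were called higher in CD105+ than in CD105- cells (P2 over P4, 5.10% of all genes) and 8 were called higher in CD105- cells (7.94% of all genes). At low ALDH activity, 7 members were called higher in CD105+ cells (P3 over P5, 7.55% of all genes) and 7 in CD105- cells (6.5% of all genes). The 7 genes higher in CD105- cells at low ALDH activity were all among the 8 at intermediate activity, so that 7 of 26 met the rule in both separate pairs (5.64% of all genes). For CD105+ cells this number was 0 (3.86% of all genes).

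These 7 genes were *Itga2b*, *Itga3*, *Itga7*, *Itga10*, *Itgb3*, *Itgb4* and *Lamc3*. *Itga7* was 27.5 times as high in P4 as in P2 (23.6 to 32.2) and 9.06 times as high in P5 as in P3 (8.24 to 9.98). *Itgb4* had ratios of 29.1 (26.2 to 32.3) and 7.10 (6.73 to 7.50), and *Lamc3* had 8.46 (7.88 to 9.10) and 6.22 (5.81 to 6.67). *Itgb3* had ratios of 4.40 (4.16 to 4.66) and 4.60 (4.34 to 4.88). The set thus included the laminin receptor subunits *Itga3*, *Itga7* and *Itgb4* and both subunits of the platelet fibrinogen receptor. *Itga3* had ratios of 3.24 and 3.11, *Itga2b* of 3.08 and 2.51, and *Itga10* of 3.33 and 2.24. *Lama3* was called only at intermediate ALDH activity, at 4.53 times (3.78 to 5.46), and was 1.78 times as high in P5 as in P3 (1.60 to 1.98). The difference between both ALDH levels was not tested.

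At low ALDH activity the genes higher in CD105+ cells included *Lama2*, at 3.03 times in P3 over P5 (2.98 to 3.09), *Itga11* at 2.86 times, *Lamb1* at 2.23 times, *Itgb5* at 2.22 times, *Lamc1* at 2.11 times and *Nid1* at 2.02 times (2.0 to 2.04). At intermediate ALDH activity these genes had P2 over P4 ratios of 1.07 for *Nid1* to 1.95 for *Lama2*. The log2 ratios of both pairs had the same sign for 22 of 26 members (84.6%, against 83.6% of all genes). Their Pearson correlation was 0.93 across members, against 0.82 over all genes. Their median absolute log2 difference was 0.39, against 0.12 over all genes. *Gapdh* was higher in P4 and P5 than in P2 and P3, and dividing each library by *Gapdh* moved the median log2 ratio of all genes by 0.47 for P2 over P4 and by 0.54 for P3 over P5, toward CD105+ cells. Under that scaling *Itga1*, *Itga9* and *Itgb1* changed direction in both pairs, *Itgb8*, *Lama4* and *Lama5* in P2 over P4, and *Lamb2* in P3 over P5, and the calls of *Itga2b* and *Itga10* in P5 over P3 and of *Lama3* in P4 over P2 were lost. The 7 genes called in both pairs toward CD105- cells then became 5, and *Itga5*, *Itgb5* and *Lama2* were called in both pairs toward CD105+ cells. *Itga9* in P2 over P4 changed direction with the median of ratios as well.

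Several marker lists moved with this comparison. Of 8 mesothelial markers, 7 were at least 2 times higher in P4 than in P2 and 6 of 7 in P5 than in P3, with *Upk3b* at 383 and 289 FPKM against 6.78 and 22.7. All 6 acinar markers were called higher in CD105- cells in both pairs, with sums of 927 against 174 FPKM in P4 and P2 and 115 against 17.9 FPKM in P5 and P3. Of the endothelial list, *Kdr* and *Esam* were also called higher in CD105- cells in both pairs. The 6 mural markers were split. *Myh11* was 56.6 and 91.8 FPKM in P4 and P5 against 6.31 and 35.1 in P2 and P3, and *Acta2* was called the same way, while *Notch3* was 1.23 and 1.02 FPKM in P4 and P5 against 4.11 and 5.84 in P2 and P3. Of the 6 fibroblast markers, *Dpt* and *Lum* were called higher in CD105+ cells in both pairs. So were the adipocyte marker *Plin1* and the leukocyte marker *Coro1a*. The part of these lists in the ratios was not tested.

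**Figure D4:**
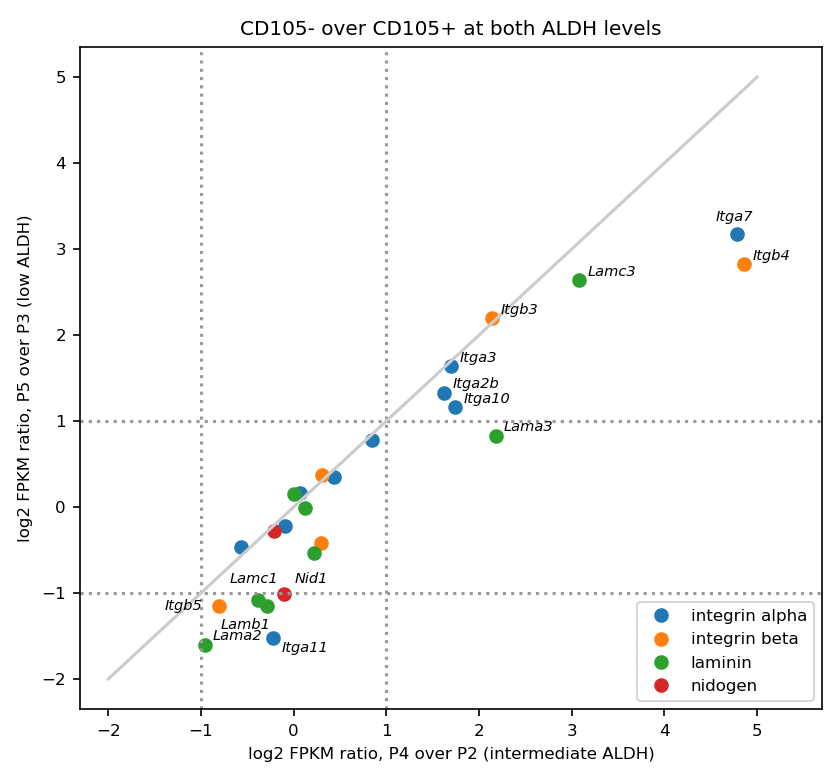
Log2 FPKM ratio of CD105- over CD105+ cells at intermediate ALDH activity (P4 over P2, x axis) and at low ALDH activity (P5 over P3, y axis) for 25 members, 1 point per gene, colored by family, with dotted lines at 2-fold and a gray line of equal ratios. The 7 points beyond the dotted lines at upper right are *Itgb4*, *Itga7*, *Lamc3*, *Itgb3*, *Itga3*, *Itga10* and *Itga2b*, and no point lies beyond both lines at lower left.

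P6 was at least 2 times above every other population for 4 of 28 members (6.45% of all genes) and at least 2 times below every other for 4 (3.43% of all genes). The higher members were *Nid2*, at 7.91 times the next library, P2 (7.72 to 8.10), *Itga6* at 7.36 times P5 (6.00 to 9.11), *Lamc3* at 4.78 times P4 (4.65 to 4.91) and *Itga3* at 2.30 times P5 (2.22 to 2.38). The lower members were all integrin alpha subunits. P6 was below the lowest other library 6.76 times for *Itga9* (6.06 to 7.55), 5.61 times for *Itga2* (4.37 to 7.32), 4.56 times for *Itga11* (3.76 to 5.62) and 3.77 times for *Itga5* (3.58 to 3.97). *Itga9* is the member whose P1 to P5 values were the closest to each other among these, at 9.50 to 11.7 FPKM.

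Other members of P6 lay near or inside the range of the rest. *Itgb5*, *Lamc1* and *Nid1* were below the lowest other library, P5, by 1.45 times (1.37 to 1.54), 1.5 times (1.47 to 1.54) and 1.83 times (1.79 to 1.86). *Lamb2* was above the highest other library, P2, by 1.37 times (1.35 to 1.39), and *Itga10* above P5 by 1.69 times (1.5 to 1.90). *Itgb2* was highest in P6 at 1.11 times P1 (0.863 to 1.44), an interval that includes 1, and its direction changed with median-of-ratios or *Gapdh* scaling.

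P4 and P5 shared part of the pattern of P6. *Itga7*, *Itgb3* and *Itgb4* had 12 to 17.9 FPKM in P6, below their values in P4 and P5 and above those in P1 to P3. When P4 and P5 were left out, a comparison added after seeing the data because both hold mesothelial markers, P6 was at least 2 times above the rest for 8 of 28 members (12.5% of all genes), with *Itga7*, *Itga10*, *Itgb3* and *Itgb4* added. It was at least 2 times below for 7 (7.0% of all genes), with *Itgb5*, *Lamc1* and *Nid1* added. The mesothelial marker sum was 2900 FPKM in P6, with 7 of 8 markers at least 2 times above every other library, and the adipocyte markers *Adipoq* (14.7 FPKM), *Plin1*, *Cfd* and *Cidec* were also at least 2 times above. *Fabp4*, the most abundant adipocyte marker, was not, at 179 FPKM in P6 and 141 to 349 elsewhere. Of the other lists, *Kdr*, *Esam*, *Csf1r*, *Cspg4*, *Mcam* and *Acta2* were above by this rule, and *Pdgfra*, *Dpt*, *Col14a1*, *Lum*, *Notch3* and *S100b* were below. The fibroblast markers *Col1a1* (1740 FPKM in P6, 670 to 1620 elsewhere) and *Dcn* (4350 FPKM, 4860 to 5870 elsewhere) were neither. Nor was the mural marker *Myh11*, at 20.1 FPKM in P6 and 2.28 to 91.8 elsewhere. The acinar sum of 1390 FPKM was also the highest of the 6, with P4 next at 927 FPKM. The part of these lists in the levels of P6 was not tested.

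**Figure D5:**
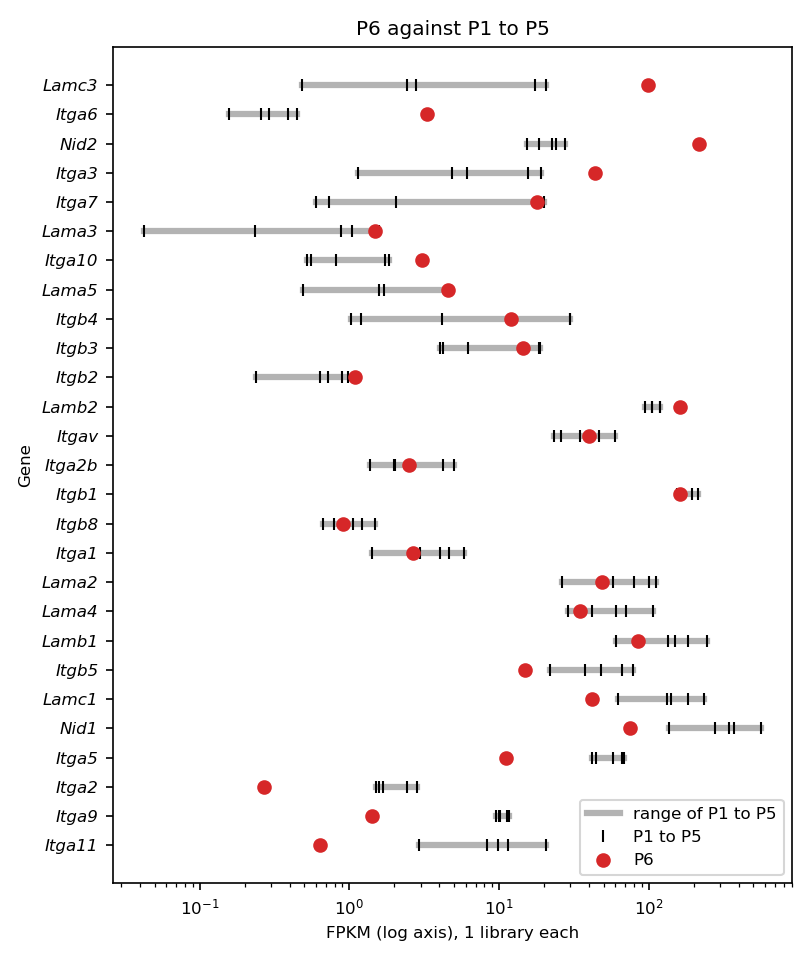
FPKM (log axis) of 27 members of at least 1 FPKM in a library, with P6 as a red point, P1 to P5 as black ticks and their range as a gray bar, 1 library each, ordered by P6 over the geometric mean of the others. *Lamc3*, *Itga6*, *Nid2* and *Itga3* lie at least 2 times to the right of the bar, and *Itga11*, *Itga9*, *Itga2* and *Itga5* lie at least 2 times to its left.

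Other basement membrane components were taken from a list of 20 genes, all of which reached 1 FPKM. *Col4a1* and *Col4a2*, the common chains of collagen IV, had 714 and 373 FPKM in P1, with lower values of 552 and 302 in P2, 477 and 254 in P3, and 372 and 191 in P4. They had 153 and 78.0 FPKM in P5 and 23.3 and 11.7 in P6. Their descending order over the libraries was that of *Itgb5*, and *Nid1* differed from them only in that P4 was above P3. *Col4a6* ran the other way at the ends, with 2.16, 11.5 and 9.73 FPKM in P1, P2 and P3 and 12.6, 16.4 and 31.3 FPKM in P4, P5 and P6. *Egfl6* and *Npnt*, matrix proteins that bind integrins, had 18.0 and 7.26 FPKM in P6 and at most 0.280 and 0.162 elsewhere. *Tinagl1*, a matrix protein of the tubulointerstitial nephritis antigen family, had 0.427 FPKM in P1 and 8.05 in P6.

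By contrast, the list had 5 of 17 genes called higher in P4 than in P5 (*Col4a1*, *Col4a2*, *Ntn4*, *Smoc1* and *Smoc2*; 4.17% of all genes) and 0 higher in P5 (1.57%). In P3 over P5, 7 of 18 were called higher in P3 (7.55% of all genes) and 1, *Col18a1*, in P5 (6.5%). In P2 over P4, 2 of 18 were called higher in P2 (5.10% of all genes) and 1 in P4 (7.94%). In CD105+ cells, 6 of 18 were called higher in P2 than in P1 (4.50% of all genes) and 0 in P1 (1.05%). Between P2 and P3, 1 of 18 was called higher in P2 (1.16% of all genes) and 0 in P3 (2.75%). P6 was at least 2 times above all others for 3 of 20 (*Npnt*, *Egfl6* and *Tinagl1*; 6.45% of all genes) and below for 3 (*Col4a1*, *Col4a2* and *Col15a1*; 3.43%).

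Laminin receptors other than integrins were represented by 13 genes, each at 1 FPKM or more in at least 1 library. *Bcam*, which binds *Lama5*-containing laminins, had 11, 13.1 and 17.6 FPKM in P1, P2 and P3, against 48.7, 41.4 and 117 FPKM in P4, P5 and P6. *Sdc4*, a syndecan of focal adhesions, had 99.1, 116 and 231 FPKM in P1, P2 and P3 and 314, 529 and 281 FPKM in P4, P5 and P6. Both were called higher in CD105- cells at both ALDH levels, which makes 2 of 13 in each pair (7.94% and 6.5% of all genes). *Bcam* was the only one of 13 at least 2 times above all others in P6 (6.45% of all genes). *Sdc1* and *Sdc3* were called in the opposite direction in both CD105 pairs (5.10% and 7.55% of all genes). Both were also called higher in P4 than in P5 (4.17%). Within CD105+ cells 0 of 13 were called in either direction, where only 1.05% to 4.50% of all genes were. *Sdc1* had 2.36 FPKM in P1, 1.03 in P5 and 8.69 in P6. *Sgcd*, *Utrn* and *Large*, of the dystroglycan complex or its glycosylation, were highest in P6 at 12.1, 16.4 and 14.5 FPKM. Other genes of the complex did not share this order. *Sspn* was lowest in P6, at 14.7 FPKM against 27.5 in P1, and *Sgcb* had 13.1 FPKM in both P1 and P6. *Sgce* had 80.5 to 84.2 FPKM throughout, and *Dag1*, dystroglycan itself, had 65.2 to 85.7 FPKM.

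Of 22 other integrin ligands, 16 reached 1 FPKM in a library. *Ltbp1*, which anchors latent TGF-beta, had 138, 101 and 92.3 FPKM in P1, P2 and P3 and 67.1, 22.5 and 1.16 FPKM in P4, P5 and P6. *Vcam1*, a ligand of *Itga9* and *Itga4*, had 54.5, 73.3 and 98.2 FPKM in P1, P2 and P3, against 39.0, 44.2 and 3.54 FPKM in P4, P5 and P6. *Postn* had 216 FPKM in P1 and 2.32 in P6, *Nov* 80.5 and 3.47, *Vtn* 11.8 and 0.630, and *Thbs1* 133 and 13.0. P6 was at least 2 times below all others for 7 of 16 ligands (these 6 and *Icam1*; 3.43% of all genes) and above for 0 (6.45%).

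Among these ligands, 5 of 16 were called higher in P4 than in P5 (4.17% of all genes) and 0 in P5 (1.57%). In P3 over P5, 8 were called higher in P3 (7.55% of all genes) and 1, *Tgfb3*, in P5 (6.5%), and in P2 over P4, 3 were higher in P2 (5.10%). *Fn1*, the ligand of *Itga5*, was listed at 0 in P1 and at 187 to 1520 FPKM in the other libraries, and *Col3a1* was listed at 0 in P2 and at 2100 to 3390 FPKM elsewhere. In all, 95 genes were listed at 0 in a library and at 10 FPKM or more in another, none of them a member, and such a 0 may be a failed estimate. The calls that rest on these zeros were 1 of 2 in P1 over P2 (1.05% of all genes), 1 of 2 in P2 over P1 (4.50%), 1 of 1 in P3 over P2 (2.75%) and 1 of 1 in P4 over P2 (7.94%). The remaining calls in these 4 comparisons were *Postn* in P1 and *Mfge8* in P2, and *Nov* was called in P2 over P3 (1.16%).

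Integrin adaptors, which tie beta subunit tails to actin, were more even. Of 20 adaptors, 17 reached 1 FPKM, and *Fermt2*, kindlin-2, had 50 to 55.5 FPKM in all libraries. *Parvb*, a parvin that binds integrin-linked kinase, was the exception, with 0.395, 0.499 and 1.48 FPKM in P1, P2 and P3 and 10.9, 9.23 and 21.7 FPKM in P4, P5 and P6. It was called in P3 over P2 (1 of 17, 2.75% of all genes) and toward CD105- cells in P4 over P2 (1 of 17, 7.94%) and P5 over P3 (1 of 16, 6.5%), and it was the only adaptor called in any ALDH or CD105 comparison. *Tln2* was the only adaptor at least 2 times above all others in P6 (6.45% of all genes), at 2.33 FPKM, and 0 were below (3.43%). The adaptors *Lims2*, *Bcar1*, *Tln1*, *Vcl* and *Zyx* had highest over lowest ratios of 1.87 to 2.78.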

How the data were processed

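RNA from 6 sorted omental stromal populations had been sequenced as single-end reads of 76 nt. Each file deposited by the authors gives FPKM per gene symbol, and the submitters' processing notes name TopHat2 2.0.7, Cufflinks 2.1.1 and mm10. The gene annotation, filters and whether mice were pooled are not given in the sources used here. Rows of one symbol were summed, which merged 495 rows per library and gave 23352 genes. No scaling between libraries was added.

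Depth was estimated from low FPKM values of 3258 genes that have only 1 transcript in GENCODE M21, at least 800 nt long, less a fragment length of 200 nt. A share of 52.2% to 58.2% of the values tested in a library (those up to 10 reads) was whole to within 0.05 read. For a depth fixed beforehand chance would give 10%, but here the depth was chosen to make the lowest of these values whole. The share is therefore no independent check of the depth. Reads were used only for 95% exact binomial intervals of ratios, with the longest RefSeq-linked transcript of each gene as its length.

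With 1 library per population, a gene was called at a ratio of at least 2 and at least 1 FPKM in the higher library (for values below all others in P6, at least 1 FPKM in every other library). A contrast was read over genes of at least 1 FPKM in either of its libraries, and P6 over genes of at least 1 FPKM in any library. Members of at least 1 FPKM are described in every library, and from each of 4 partner lists up to 6 genes with the largest ratio of highest to lowest library among those of at least 5 FPKM. Other list genes were named after their values were seen. A few genes that enter the counts are not reported here by name or in the plots. Members, partner lists and marker lists were chosen with earlier results of these data known.

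Alternatives were the minimum FPKM, the fold, a pseudocount and the scaling of libraries (a common sum, the median of ratios, or *Gapdh*). The depth estimate and the calling rule were tried on simulated reads with counting error only. For the rule, the planted changes were larger than 2-fold. Such reads hold no spread between mice or sorts, so they say nothing of it. Software was Python 3.11.15, scipy 1.17.1, pandas 2.3.3, numpy 2.4.6 and, for plots, matplotlib 3.10.9.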

Additional observations from a re-analysis of the deposited data

How the results depend on the processing

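Of 100 alternative values for the 14 counts of members, 75 stayed within 1.5 times and 25 did not. Without a minimum FPKM, the counts were 12 for P2 above P1, 4 for P2 above P3, 5 for P5 above P4, 9 for P2 above P4, 12 for P3 above P5 and 7 for P6 below all others. With the minimum raised to 5 FPKM, the counts became 0 for P2 above P1, 0 for P3 above P2, 0 for P5 above P4, 5 for P4 above P2 and 2 for P6 below all others. At 1.5 times, they were 4 for P1 above P2, 1 for P2 above P3, 5 for P3 above P2, 2 for P5 above P4 and 2 for P2 above P4. These changes follow from the limits themselves, which admit more or fewer genes. A pseudocount of 1 gave 2 for P2 above P1, since it shrinks ratios of low genes. For P2 above P4, scaling by the median of ratios gave 1 (*Lama2*) and *Gapdh* gave 3 (*Itga5*, *Itgb5* and *Lama2*), and the cause was not tested. Without P4 and P5, chosen after seeing the data, the counts were 8 above and 7 below in P6. Under this rule such counts cannot fall when libraries are left out, and no other pair was left out for comparison. For genes called in both CD105 pairs, alternatives added after seeing the data gave 5 to 9 toward CD105- cells. *Itga2b* and *Itga10* lost that call at a minimum of 5 FPKM and with *Gapdh*, and *Itga10* also with the pseudocount. Toward CD105+ cells they gave 4 without a minimum, 2 at 1.5 times, 1 (median of ratios) and 3 (*Gapdh*). Of 280 alternative log2 ratios of at least 1 in size, 128 stayed within the counting interval and 152 did not. From P1 to P6, the median log2 ratio of all genes moved by −0.20 with the median of ratios and by −0.34 with *Gapdh*. No paired analysis was possible because there was only 1 library per population. Members near 1 FPKM rest on the fewest estimated reads, such as 40 for *Itga6* in P2 and 23 for *Lama3* in P1.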
